A study of Mus musculus with 8 samples.

Results

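Neuropeptides are short signals cut from larger precursor proteins in dense core granules and released by nerves and by endocrine cells. In pancreatic islets, parasympathetic and sympathetic nerve endings release vasoactive intestinal peptide (VIP), pituitary adenylate cyclase-activating peptide (PACAP), galanin and neuropeptide Y, and endocrine cells also make some of these peptides themselves. VIP and PACAP are known to enhance insulin secretion through receptors that raise cAMP, whereas galanin and neuropeptide Y are known to restrain it. The genes described here were chosen by symbol in the deposited count table as neuropeptide genes of islet cells or their nerves. All 10 of them, Npy, Gal, Cartpt, Trh, Penk, Vip, Adcyap1, Nmu, Nmb and Pnoc, were present among its 32531 gene symbols.

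Islet RNA was sequenced from 4 Control and 4 β-tetO-NICD mice on a mixed background of C57BL/6J, 129X1/SvJ and BALB/c. Every mouse carried RIP-Cre, which is driven by a rat insulin promoter, and Rosa26-rtTA, and every mouse drank doxycycline (Dox) for 8 weeks. The β-tetO-NICD mice also carried tetO-NICD, which in cells with Cre and Dox produces the Notch1 intracellular domain, and the Control mice did not. The labels give no age. The comparison asked how neuropeptide expression differed between islets with and without Notch activation in β cells. Because whole islets were used, a change in the number of cells or nerve endings that make a peptide and a change in RNA per cell cannot be told apart.

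Each library is 1 mouse, and every ± after a CPM level is the SD over the 4 libraries of a group. Adjusted p values are from edgeR's quasi-likelihood fit over all genes unless another tool is named. Libraries held between 21701223 and 26413146 counts. Notch1 had at most 1562 counts in any Control library and at least 11388 in any β-tetO-NICD library, so that the labels matched the transgene. The β-tetO-NICD columns are numbered 1, 2, 4 and 5 in the count table and are called by those numbers here. Male islets are described in the study's methods for expression work, but counts of the Y-linked Eif2s3y were 1300 (Control 2), 1527 (Control 4) and 1465 (β-tetO-NICD 5), and 0 or 1 elsewhere. Longer transcripts were relatively more abundant in β-tetO-NICD 1 and in Control 1, 2 and 4 (Spearman's rho between transcript length and the library's deviation from the mean of 0.418 to 0.497 across 14655 genes). In Control 3 and the other β-tetO-NICD libraries the sign was opposite (−0.521 to −0.174). Genes are not independent replicates, and these correlations only describe the libraries.

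Promoter sequences were searched for sites of cAMP and Notch signaling. RefSeq promoter windows of GRCm38.p6, from 250 bases before to 50 bases after the start site, matched 8 of the 10 genes and were not used here for Penk and Pnoc. The cAMP response element, TGACGTCA, is the binding site of CREB, the factor through which cAMP activates transcription. It occurred in 1 of the 8 genes, Cartpt, and in 2.03% of all 27025 gene symbols with a window. Its shorter core TGACG, which the full element contains, was found on either strand in 6 of the 8 genes and in 23% of all symbols. These were Vip, Adcyap1, Cartpt, Trh, Nmu and, after the start site, Gal, whereas Npy and Nmb had none. The first 4 of them are shown, as genes with the core before the start site and with counts in these islets. The 30 bases around the core, 5′ to 3′ on the strand of each gene with the match in capitals, lie at chr10:5639127-5639156 for Vip, chr17:93198914-93198943 for Adcyap1, chr13:99900778-99900807 for Cartpt and chr6:92244729-92244758 for Trh, where the core is on the opposite strand.
Vip: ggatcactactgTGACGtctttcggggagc
Adcyap1: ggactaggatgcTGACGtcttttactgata
Cartpt: cccggcgggcatTGACGTCAaacggcagcg
Trh: ccccggctctgcCGTCAgcgcccctgcatt
The match began 79, 91, 112 and 96 bases before the start site of Vip, Adcyap1, Cartpt and Trh. The Notch factor RBPJ binds GTGGGAA, which did not occur on either strand in any of the 8 genes' windows and occurred in 7.25% of all symbols. CACGNG, a site of Hes and Hey repressors, occurred on either strand in Nmu, Nmb and Cartpt and in 30.3% of all symbols. A match describes the letters only and is no evidence of binding.

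Expression ranged widely among the 10 genes. Levels are given as CPM, counts scaled by TMM to a common library size. Per kilobase of the longest annotated transcript, the mean level in Control islets was 80.3 CPM for Npy, 60.3 for Vip and 15.4 for Gal, followed by Penk at 7.96 and Cartpt at 6.86. Nmb (1.29), Pnoc (0.707), Adcyap1 (0.670) and Trh (0.255) were far lower on this scale. Each detected gene overlapped with its neighbor in this order when single Control libraries were compared. In β-tetO-NICD islets the order was the same except that Gal (33.7 CPM per kilobase) and Vip (33.1) stood side by side in the reverse order. Npy was then above Gal in every library comparison, at 64.7 or more against 61.7 or less. Nmu, which encodes neuromedin U, had 0 counts in all 8 libraries. A count of 0 allows up to 3 counts, or 0.151 CPM in the library with the highest such limit, which covers counting error only.

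**Figure D1:**
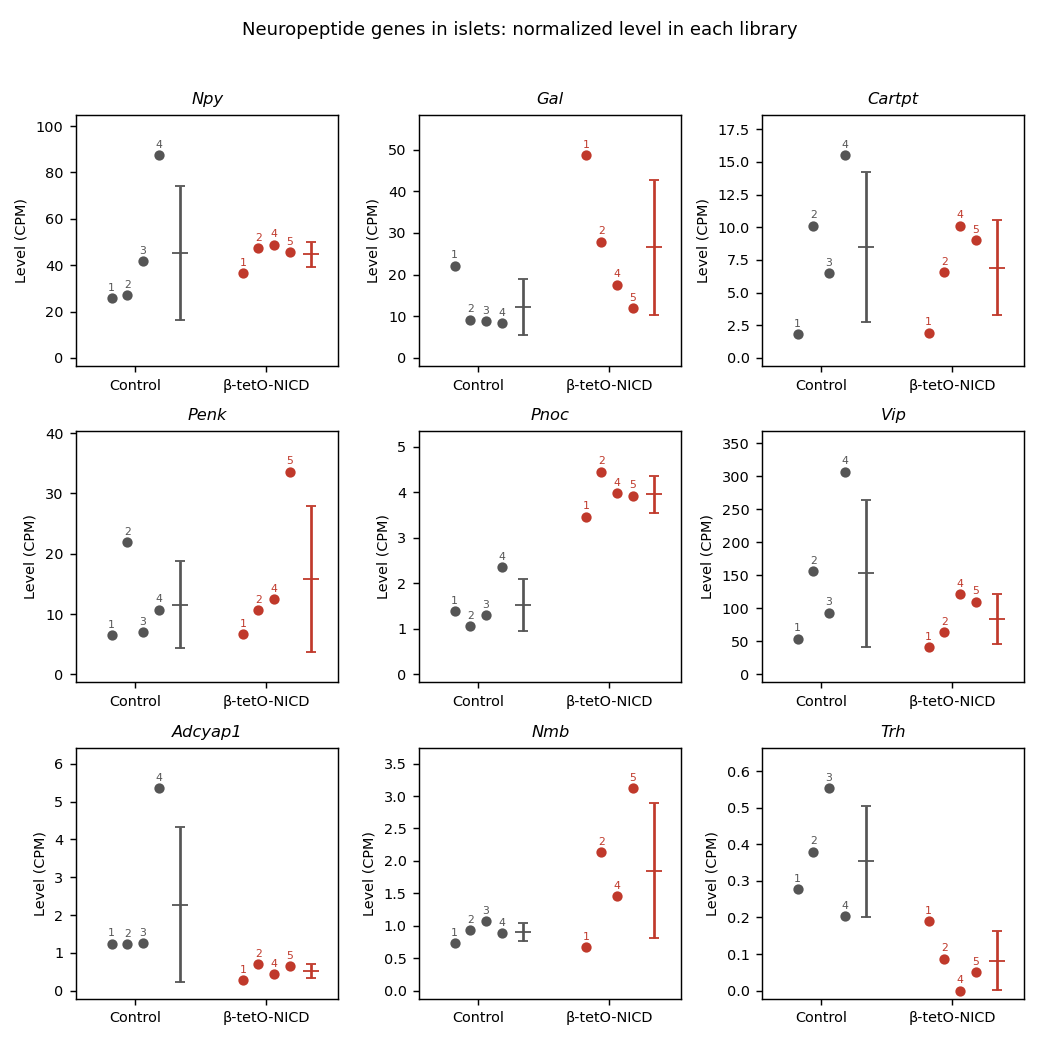
Level of the 9 detected neuropeptide genes (y axis, CPM) in the Control (gray) and β-tetO-NICD (red) libraries. Points are single libraries with their number, and bars give the mean ± SD of 4 libraries. Pnoc lies between 3.47 and 4.45 CPM in β-tetO-NICD islets, above every Control library, whereas Npy, Vip, Cartpt and Adcyap1 are highest in Control 4.

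Of the 10 genes, 8 had at least 10 counts in at least 4 libraries and were tested in a fit over 15082 genes. Pnoc alone passed an adjusted p of 0.05 and was higher in β-tetO-NICD islets. Of all genes tested 6.76% passed, 4.19% with higher and 2.57% with lower levels under Notch activation, and 1 of 8 does not set the neuropeptide genes apart from them. An unadjusted p under 0.05 was reached by 4 of the 8 and by 31.6% of all genes tested. Log2 fold changes were positive for 4 genes and negative for 4, and their median was 0.22, against 0.00 over all genes tested. Groups did not overlap for Pnoc and Adcyap1, with Pnoc higher and Adcyap1 lower under Notch activation. Such a gap between groups was seen in 16.1% of all genes tested, 8.22% upward and 7.92% downward.

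**Figure D2:**
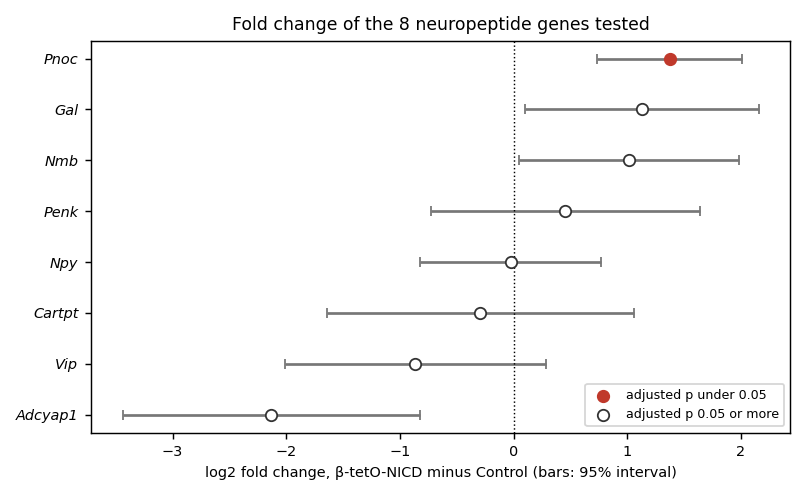
Log2 fold change of the 8 tested genes (x axis, β-tetO-NICD minus Control, edgeR) with its 95% interval. The filled point is Pnoc at 1.37, the only one with an adjusted p under 0.05. Intervals of Penk, Npy, Cartpt and Vip include 0.

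Opioid peptides were considered first. Pnoc (chr14:65400673-65425472, GRCm38) encodes the precursor of nociceptin, the ligand of the opioid-like receptor Oprl1. It stood at 1.38, 1.06, 1.31 and 2.35 CPM in Control 1 to 4 and at 3.47, 4.45, 3.98 and 3.93 CPM in β-tetO-NICD 1, 2, 4 and 5. Control 4 was the highest of its group and still below every β-tetO-NICD library. The mean rose from 1.52 ± 0.57 to 3.96 ± 0.403 CPM, which is 1.37 on the log2 scale (standard error 0.29, 95% interval 0.73 to 2.01, adjusted p = 0.0230). These levels rest on 25 to 58 counts in Control and 73 to 120 counts in β-tetO-NICD libraries. Leaving out single libraries gave log2 fold changes of 1.24 to 1.67. Its adjusted p was 0.0661, 0.0618 and 0.0505 without Control 1, 2 or 3 and 0.0799 and 0.0677 without β-tetO-NICD 2 or 4. It passed without Control 4 and without β-tetO-NICD 1 or 5. The 5 libraries lacking Eif2s3y counts were Control 1 and 3 and β-tetO-NICD 1, 2 and 4. Fits within them have less power than those over all libraries. There the log2 fold change of Pnoc was 1.56 (adjusted p = 0.0918). With an offset for transcript length it was 1.16 (adjusted p = 0.0334). With the sign of each library's length trend as a factor it was 1.38 and did not pass (adjusted p = 0.0612). Nociceptin precursor RNA is also known from lymphoid cells. Of 10 lymphocyte markers 6 were tested, with adjusted p values of 0.106 or more. The level summed over all 10 was 18.9 to 29.01 CPM in Control and 29.8 to 56.3 CPM in β-tetO-NICD libraries. It was highest in β-tetO-NICD 1, the library with the least Pnoc of its group. The part of lymphocyte RNA in the rise of Pnoc was not tested.

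Penk (chr4:4133531-4138819) encodes the enkephalin precursor. Control 1 to 4 had 6.50, 21.96, 6.96 and 10.7 CPM, and β-tetO-NICD 1, 2, 4 and 5 had 6.65, 10.7, 12.5 and 33.6 CPM. The groups overlapped except for β-tetO-NICD 5, which lay above every Control library. Means were 11.5 ± 7.20 and 15.9 ± 12.1 CPM, and the log2 fold change of 0.46 did not pass (95% interval −0.73 to 1.64, adjusted p = 0.561). It was −0.21 without β-tetO-NICD 5. Control 2 and β-tetO-NICD 5, the libraries with the most Penk, were also those with the highest summed mesenchyme markers of their groups, at 839 CPM in a Control range from 249.7 and at 539 CPM in a β-tetO-NICD range from 447, a relation that was not tested.

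The remaining opioid precursor genes, Pdyn (dynorphins) and Pomc (β-endorphin and melanocortins), belonged to a list of 48 other secreted peptide genes, and were set beside Pnoc and Penk after their values had been seen. Pdyn rose from 25.3 ± 12.8 to 167 ± 73.8 CPM, with 16.0 to 44.1 CPM in Control and 77.6 to 240.1 CPM in β-tetO-NICD libraries, and the log2 fold change was 2.72 (adjusted p = 0.00592). Pomc rose from 3.05 ± 1.13 to 10.6 ± 2.79 CPM, with 1.79 as log2 fold change (adjusted p = 0.0118). Both passed with each library left out in turn. In the 5 libraries lacking Eif2s3y counts Pdyn passed (3.03, adjusted p = 0.0438) and Pomc did not (1.32, adjusted p = 0.156). The receptors of these peptides, Oprd1, Oprm1 and Oprl1, did not pass. The estimates were −0.60 for Oprd1 (adjusted p = 0.507), 0.46 for Oprm1 (adjusted p = 0.494) and 0.32 for Oprl1 (adjusted p = 0.543) on the log2 scale, and that of Oprd1 turned sign under some settings. The dynorphin receptor gene Oprk1 was under the count minimum, with 0, 0, 0 and 1 counts in Control 1 to 4 and 8, 9, 5 and 1 counts in β-tetO-NICD 1, 2, 4 and 5.

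Of the peptides that raise cAMP, Vip (chr10:5639218-5647617) was the most abundant. Control 1 to 4 had 54.1, 156, 93.5 and 307 CPM and β-tetO-NICD 1, 2, 4 and 5 had 40.6, 63.4, 122 and 109.9 CPM. Control 4 lay far above the rest and the other libraries overlapped between groups. Means were 153 ± 111 and 83.9 ± 38.2 CPM, and the log2 fold change of −0.86 did not pass (95% interval −2.01 to 0.28, adjusted p = 0.260). It was −0.26 without Control 4 and 0.03 in the 5 libraries lacking Eif2s3y counts, which do not include Control 4.

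Adcyap1 (chr17:93199017-93206537) encodes PACAP, the closest relative of VIP. It had 27, 29, 32 and 132 counts in Control 1 to 4 and 6, 16, 13 and 13 counts in β-tetO-NICD 1, 2, 4 and 5. Every β-tetO-NICD library was below every Control library. Control 4 stood far above the other Control libraries, at 4.38 times the lowest of them in CPM. Means were 2.27 ± 2.06 and 0.518 ± 0.194 CPM, and the log2 fold change of −2.13 did not pass (95% interval −3.44 to −0.82, adjusted p = 0.0577, unadjusted p = 0.00468). The estimate was −1.26 without Control 4 (adjusted p = 0.122). Leaving out β-tetO-NICD 1 (−1.94, adjusted p = 0.0414) or using DESeq2 (−2.13, adjusted p = 0.00660) brought it past the threshold, and over the 20 alternatives in which it was tested the adjusted p ran from 0.00660 to 0.250.

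The receptor genes for these peptides were examined next. Vipr2, the VPAC2 receptor gene, which binds both VIP and PACAP, stood at 2.49, 1.48, 0.91 and 2.31 CPM in Control 1 to 4 and at 6.51, 8.12, 10.1 and 11.0 CPM in β-tetO-NICD 1, 2, 4 and 5. It rose from 1.80 ± 0.738 to 8.94 ± 2.02 CPM, or 2.31 ± 0.33 (estimate and standard error) on the log2 scale, with an adjusted p of 0.00429, and passed with each library left out. In the 5 libraries lacking Eif2s3y counts it was 2.29 and did not pass (adjusted p = 0.104). Vipr1 and the PACAP receptor gene Adcyap1r1 did not pass (log2 fold changes −0.15 and −0.05, adjusted p = 0.597 and 0.937). Among 20 receptor genes of the 10 peptides, 19 were in the table and 9 were tested, of which Vipr2 alone passed. Over all genes tested 6.76% passed.

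Gal (chr19:3409915-3414544) encodes galanin and had 22.2, 9.21, 8.86 and 8.32 CPM in Control 1 to 4 and 48.6, 27.9, 17.6 and 11.9 CPM in β-tetO-NICD 1, 2, 4 and 5. Control 1 lay inside the β-tetO-NICD range, and the other Control libraries lay below all of it. Means were 12.1 ± 6.70 and 26.5 ± 16.1 CPM, and the log2 fold change of 1.13 did not pass (95% interval 0.10 to 2.16, adjusted p = 0.136, unadjusted p = 0.0347). It was 0.66 without β-tetO-NICD 1. Control 1 and β-tetO-NICD 1, the highest of each group, also had the highest summed acinar markers of their groups, 105642 and 160808 CPM, and with the acinar score as covariate the log2 fold change was 0.77 (adjusted p = 0.130). Galr1, the galanin receptor gene, did not overlap between the groups, with 24.9 ± 7.29 CPM in Control and 13.6 ± 2.68 CPM in β-tetO-NICD islets, and a log2 fold change of −0.87 that did not pass (adjusted p = 0.0511). It passed without Control 3 (adjusted p = 0.0407) and without β-tetO-NICD 1 (adjusted p = 0.0148). For Galr2 the log2 fold change was −0.30 (adjusted p = 0.642).

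Npy (chr6:49822710-49829507), a gene of sympathetic nerves and of immature β cells, had nearly equal means. Control 1 to 4 had 25.8, 26.98, 41.7 and 87.4 CPM and β-tetO-NICD 1, 2, 4 and 5 had 36.6, 47.5, 48.9 and 45.8 CPM. The β-tetO-NICD libraries were close together and lay inside the Control range, which was set by Control 4. Means were 45.5 ± 28.9 and 44.7 ± 5.52 CPM, with a log2 fold change of −0.02 (95% interval −0.82 to 0.77, adjusted p = 0.968). The estimate was 0.51 without Control 4 and −0.69 with an offset for transcript length, and passed in neither. The interval leaves room for changes of either sign. Of the receptor genes for neuropeptide Y, Npy1r alone was tested, and its log2 fold change was −0.32 (adjusted p = 0.552).

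Cartpt (chr13:99898489-99901091) encodes the cocaine- and amphetamine-regulated transcript peptide, found in islet cells and in nerves. It had 1.84, 10.1, 6.49 and 15.5 CPM in Control 1 to 4 and 1.95, 6.59, 10.1 and 9.02 CPM in β-tetO-NICD 1, 2, 4 and 5. Library 1 was the lowest in both groups, and the ranges overlapped almost entirely. The log2 fold change was −0.29 (95% interval −1.64 to 1.06, adjusted p = 0.753).

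Nmb (chr7:80902227-80905076) encodes neuromedin B, a bombesin-like peptide. It had 16, 22, 27 and 22 counts in Control 1 to 4 and 14, 49, 44 and 62 counts in β-tetO-NICD 1, 2, 4 and 5. β-tetO-NICD 1 was the lowest library of all and the other β-tetO-NICD libraries were above every Control. The log2 fold change was 1.02 (95% interval 0.05 to 1.98, adjusted p = 0.145). It passed without β-tetO-NICD 1 (1.29, adjusted p = 0.0194) and fell to 0.25 with an offset for transcript length (adjusted p = 0.574). The part of transcript length in these values was not tested.

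Trh (chr6:92242061-92244650), the thyrotropin-releasing hormone gene, which is known from β cells around birth, was close to the limit of detection. It had 6, 9, 14 and 5 counts in Control 1 to 4 and 4, 2, 0 and 1 counts in β-tetO-NICD 1, 2, 4 and 5, and was under the count minimum. Every β-tetO-NICD library was below every Control library. Without a filter on low counts, its log2 fold change was −2.12 and did not pass (adjusted p = 0.129). Trhr, which encodes its receptor, had at most 5 counts in any library.

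Differences between libraries of the same group were large for most of these genes. The within-group SD of log2 CPM, pooled over both groups, was set against that of all tested genes. Its percentile ran from 84.6 for Npy to 97.6 for Cartpt and was 53.2 for Pnoc. Genes were not matched for level, and at few counts, as for Adcyap1 and Nmb, counting noise also raises this SD. Among the 9 detected genes, Npy, Cartpt, Vip and Adcyap1 had their highest level of all 8 libraries in Control 4. The nerve markers, a list of 20 genes of which 18 were tested, summed to 568 CPM in Control 4. The sum was 359 to 452 CPM in the other Control libraries and 358 to 419 CPM in β-tetO-NICD libraries. Its largest term in Control 4 was Snap25, at 191 CPM. The sum is not nerve RNA alone, because it includes Th, which some β cells also express. All 20 markers had counts, with the noradrenergic genes Dbh and Slc6a2 at no more than 13 and 5 counts in any library. The part of nerve RNA in the levels of Npy, Cartpt, Vip and Adcyap1 was not tested.

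Of the 18 nerve markers tested, Th alone passed, where 6.76% of all genes tested did. This gene of catecholamine synthesis, expressed by sympathetic nerves and by some β cells, fell by 1.48 on the log2 scale, to 15.0 ± 2.74 CPM from 41.9 ± 1.01 CPM in Control islets (adjusted p = 0.000681), and passed with each library left out. The cholinergic transporter gene Slc5a7 stood at −1.36 on the log2 scale and did not pass (adjusted p = 0.128). It passed in 1 of the 8 fits with a library left out (adjusted p = 0.0271). Uchl1, a general neuronal gene, pointed the other way at 0.67 and did not pass either (adjusted p = 0.141). It passed when β-tetO-NICD 1 was left out (adjusted p = 0.00713). Of the 18 estimates 5 were positive and 13 negative. The median over the tested nerve markers was −0.33, against 0.00 over all genes tested. The 12 glia markers summed to 136 to 189.7 CPM in Control and 115 to 154 CPM in β-tetO-NICD libraries.

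**Figure D3:**
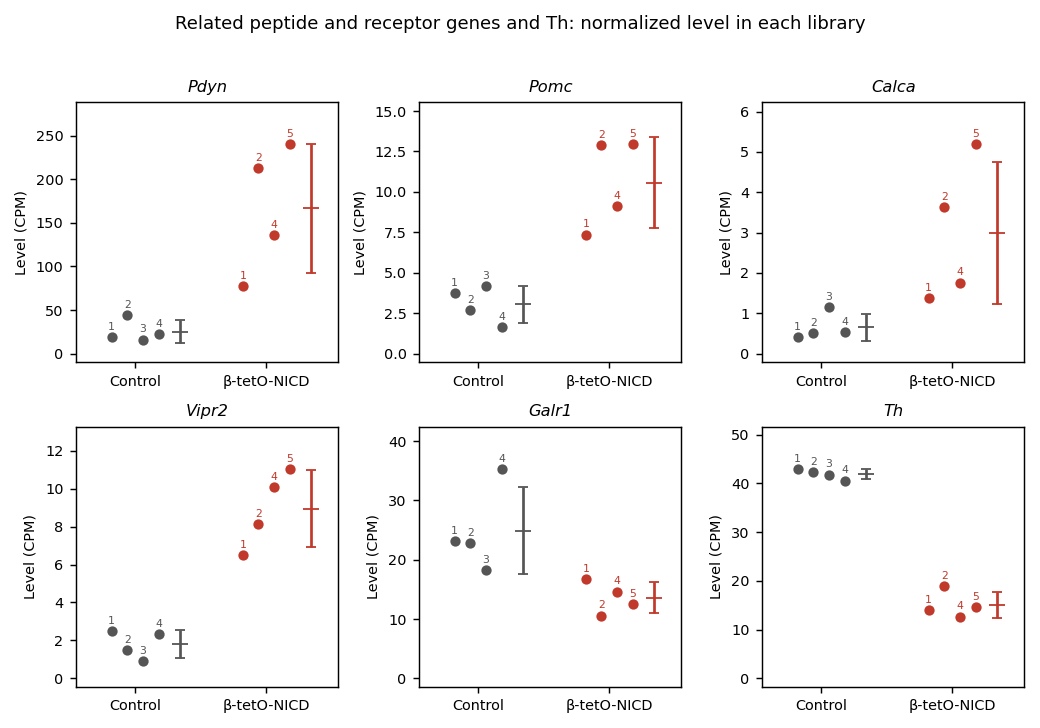
Level (y axis, CPM) of the peptide genes Pdyn, Pomc and Calca, the receptor genes Vipr2 and Galr1, and Th in each Control (gray) and β-tetO-NICD (red) library, with library numbers and the mean ± SD of 4 libraries. Vipr2 lies between 6.51 and 11.0 CPM in β-tetO-NICD islets and at most at 2.49 CPM in Control islets. The groups do not overlap in any of the 6 panels. The genes were taken from those of lowest adjusted p in their lists, so this separation follows largely from the choice. Of all genes tested, 16.1% did not overlap.

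Among the 48 other secreted peptide genes, all were in the table and 19 were tested. Of these, 4 were higher in β-tetO-NICD islets, 1 was lower and 14 did not pass, with a median log2 fold change of 0.16. Over all genes tested, 4.19% passed as higher and 2.57% as lower. Besides Pdyn and Pomc, Calca, which encodes calcitonin and CGRP, rose from 0.649 ± 0.336 to 2.99 ± 1.77 CPM (log2 fold change 2.18, adjusted p = 0.0346). Edn3, endothelin 3, named because it completes the count, rose by 0.98 (adjusted p = 0.0347). Ucn3, urocortin 3, a marker of mature β cells, fell by 1.11 on the log2 scale (adjusted p = 0.0274). With each library left out in turn, Calca and Edn3 passed only without Control 3 and without β-tetO-NICD 1, and reached adjusted p values of 0.102 and 0.101. Ucn3 was lost without Control 1 or 4 or β-tetO-NICD 2 or 4 (adjusted p up to 0.102). Of 10 α cell markers, 4 were higher in the same comparison, among them Gc, and 6 did not pass, against 4.19% higher over all genes tested. Their summed level was 12418 to 43498 CPM in Control and 56118 to 71116 CPM in β-tetO-NICD libraries. Most of it was the glucagon gene Gcg, which did not pass (adjusted p = 0.0622). Of 9 δ and PP (pancreatic polypeptide) cell markers, Hhex alone passed and was higher (log2 fold change 1.01, adjusted p = 0.0436). The somatostatin gene Sst stood at 1.46 and did not pass (adjusted p = 0.0619). Of the 9 estimates 5 were positive and 4 negative. The part of α, δ or PP cell RNA in the rise of peptide genes was not tested.

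Of 17 genes of peptide processing and breakdown and of granins, all were tested, and 2 were lower in β-tetO-NICD islets. Over all genes tested 2.57% were lower. Pcsk1, which encodes the prohormone convertase that cleaves proinsulin, was at 547 ± 168 CPM in Control and 261 ± 64.9 CPM in β-tetO-NICD islets (log2 fold change −1.07, adjusted p = 0.0446). Dpp4, a peptidase that shortens neuropeptide Y and PACAP, was at 93.3 ± 12.8 and 34.5 ± 16.4 CPM (log2 fold change −1.43, adjusted p = 0.0199). Pcsk1 passed only without Control 3 or β-tetO-NICD 1 when single libraries were left out (adjusted p up to 0.133). Dpp4 was lost without Control 4 or β-tetO-NICD 2, 4 or 5 (adjusted p up to 0.0656). Of 12 β cell markers 5 were lower in β-tetO-NICD islets, against 2.57% of all genes tested. The part of β cell RNA in these changes was not tested. Pcsk1n, the inhibitor of that convertase, and Pam, the amidating enzyme that many neuropeptides need, did not pass, at 1.19 (adjusted p = 0.0686) and 0.53 (adjusted p = 0.110) on the log2 scale.

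For each tested neuropeptide gene, the gene with the most similar profile of log2 CPM over the 8 libraries was found among all genes tested. These were Tacr3 for Npy (Pearson's r 0.963), Rhbdf1 for Gal (0.964), Tmeff2 for Cartpt (0.921), Gsn for Penk (0.968), Cdkal1 for Vip (0.955), Vps8 for Adcyap1 (0.966), Ssu72 for Nmb (0.991) and Gm19410 for Pnoc (0.983). The highest value among so many genes over 8 libraries is large for any gene, and the libraries share depth, length trend and group, so these names only describe the profiles.

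**Figure D4:**
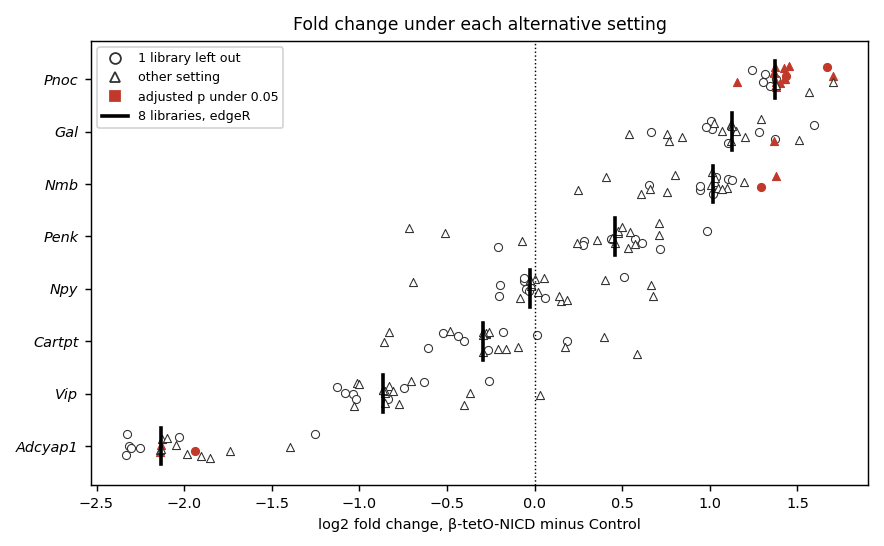
Log2 fold change of each tested gene (x axis, β-tetO-NICD minus Control) with all 8 libraries (black bars), with 1 library left out (circles) and under other settings (triangles), filled red where the adjusted p is under 0.05. Pnoc stays between 1.16 and 1.70 and Adcyap1 between −2.33 and −1.26, whereas Npy, Cartpt, Penk and, in 1 setting, Vip lie on both sides of 0.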

How the data were processed

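The authors made stranded poly(A) libraries (TruSeq Stranded mRNA), pseudoaligned reads to the GRCm38 mouse transcriptome using Kallisto. In the deposited table the authors give 1 row per gene symbol with raw whole-number counts. The Kallisto version and annotation release are not given in the sources used here. The deposited table of the authors' own comparison (limma fold changes and p-values) was not used. Replicates are single mice by their labels. β-tetO-NICD columns 4 and 5 match the group but no particular mouse, whose labels run from 1 to 4. All library pairs of a group differed by more than sampling noise (chi-square per gene at least 31.5).

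The test covered genes that reached 10 counts in 4 or more of the 8 libraries and was run in R 4.3.3 with edgeR 4.0.16 (TMM, glmQLFit and glmQLFTest, no covariate, two-sided). P values were adjusted by Benjamini-Hochberg over all 15082 genes tested. Intervals are 95% and come from the same fit. CPM uses TMM library sizes, and log2 CPM a prior count of 2. Fits were first tested on simulated counts. Alternatives were DESeq2 1.42.0, limma-voom (limma 3.58.1), other normalizations and filters, leaving out each library, a replicate block, covariates for Eif2s3y and an acinar marker score, and an offset for transcript length (GENCODE M21, 97.2% of tested genes). Named genes are the 10 neuropeptide genes, up to 4 genes of lowest adjusted p from each list, checks of the labels, and the gene most like each tested neuropeptide gene. Edn3, further receptor genes (Oprl1, Oprk1, Vipr1, Adcyap1r1, Galr2, Npy1r and Trhr), Gcg, Dbh, Slc6a2 and Snap25 are named outside this rule, after their values were seen. The genes and lists were chosen with earlier results of these data known.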

Additional observations from a re-analysis of the deposited data

Results flagged for a closer look

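In each group of 4, the distance from the highest or lowest library to the next was divided by the group's range, for the 9 detected neuropeptide genes. Of these 18 groups, 2 passed Dixon's 95% critical value, where chance gives about 0.9 (1 in 20). Adcyap1 was far higher in Control 4 than in the other Control libraries (gap 0.99 of the range), with 132 counts against 27 to 32. Gal was far higher in Control 1 than in the other Control libraries (gap 0.936), with 481 counts against 205 to 224. No cause was tested for either.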

How the results depend on the processing

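Over all genes tested, 1020 passed (632 higher, 388 lower), against 319 to 4954 with single libraries left out. Without β-tetO-NICD 1 the count was 4954 (2423 higher, 2531 lower). Without β-tetO-NICD 1 and Control 3 it was 5817 (2874 higher, 2943 lower). With both left out, the length trend was positive in every remaining Control and negative in every remaining β-tetO-NICD library. Group and length trend cannot be told apart in that fit. The count of genes passing was 2739 with DESeq2 and 1534 with the length offset. It was 608 with the sign of the length trend as a factor and 104 in the 5 libraries lacking Eif2s3y counts. Of the neuropeptide genes 1 passed, against 0 to 3 with single libraries left out (2 to 4 at an unadjusted p under 0.05), 2 with DESeq2 (Pnoc and Adcyap1) and 3 without both libraries (Pnoc, Adcyap1 and Nmb). With edgeR it was 0 in the 5 libraries and with the length-trend factor, where 2 and 3 had an unadjusted p under 0.05. Receptor genes passing (1) numbered 1 to 2 with single libraries left out, 2 with DESeq2, median-ratio scaling, 10 counts in every library, the length offset or both libraries left out, and 0 in the 5 libraries (2 at an unadjusted p under 0.05). Other peptide genes passing (5) numbered 2 to 7 with single libraries left out, 3 with the Eif2s3y covariate, 2 with the length-trend factor and 1 in the 5 libraries. Processing genes passing (2) numbered 0 to 4 with single libraries left out, 4 with DESeq2, 6 without both libraries, 1 with the Eif2s3y or acinar covariate or the length-trend factor, and 0 in the 5 libraries (3 at an unadjusted p under 0.05).

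The direction turned for genes that did not pass. The log2 fold change of Npy (main −0.02) was −0.205 to 0.511 with single libraries left out, 0.153 with limma-voom, 0.056 with upper-quartile scaling, 0.004 with 10 counts in every library, 0.139 with the Eif2s3y covariate, 0.399 in the 5 libraries, 0.183 with the acinar covariate and 0.022 without both libraries. Cartpt was −0.606 to 0.186 with single libraries left out, 0.175 and 0.395 with the Eif2s3y and acinar covariates and 0.585 in the 5 libraries. Penk was −0.208 to 0.983 with single libraries left out and −0.073 with the length offset. Vip was 0.033 and Oprd1 0.772 in the 5 libraries, and Oprd1 was 0.139 with the length-trend factor. The cause of these shifts was not tested.

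Only numbers 1 and 2 occur in both groups with a settled column, and the deviations of same-numbered libraries correlated at 0.276 for number 1 and −0.09 for number 2. With 2 pairs of unlike sign, pairing is not settled, and the samples are treated as sharing only a number. With a replicate block over these 4 libraries 482 genes passed, 2 of them neuropeptide genes (Gal and Pnoc), against 47 and 0 without the block, where no receptor, other peptide or processing gene passed either (0 each, with 3, 2, 6 and 4 genes at an unadjusted p under 0.05) and Th was lost (adjusted p = 0.138). Npy was 0.666 with the block and 0.678 without, Penk −0.514 and −0.715, and Oprd1 0.070 and 0.078. The unblocked fit, the length-trend factor and the joint omission of β-tetO-NICD 1 and Control 3 were chosen after seeing the data. Depth limits Trh, Nmu, Oprk1 and Trhr, where few counts leave large changes undetectable.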
